A study of Mus musculus with 12 samples.

Results

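The neuronal pentraxins are a family of 3 genes, *Nptx1*, *Nptx2* and *Nptxr*, among the 55413 genes of the mouse annotation used here. H4K12ac peaks were compared within 2 kb of the transcription start site (TSS) of each gene, in its gene body and in flanks of 50 kb. The family was chosen by name, but with earlier results of these peak lists known: H4K12ac peaks by genotype, among them a lower region at *Nptx1*, had been seen. The genotype differences at the 3 genes are therefore given as a description, with no test.
Each library came from neuronal nuclei, sorted by FACS from the entire hippocampus, and there were 5 *Tip60* cKO and 5 control mice. *Tip60* cKO mice carried the CaMKCreERT2 driver, which recombines in postmitotic excitatory neurons of the forebrain, and *Tip60* f/f alleles. Controls were *Tip60* f/f without the driver. Both groups received tamoxifen and were studied at day 10 after the last injection, and the labels give males of C57BL/6J at 3 months of age. Sorted nuclei include inhibitory neurons, in which the driver does not act. A mark lost from some nuclei and a mark reduced in all nuclei cannot be told apart in such libraries.

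*Nptx1* and *Nptx2* encode secreted proteins and *Nptxr* a pentraxin anchored in the membrane. The 3 proteins assemble into mixed complexes, bind AMPA-type glutamate receptors through their pentraxin domains and cluster these receptors at excitatory synapses, in particular on parvalbumin interneurons. *Nptx2*, also known as Narp, is an immediate early gene that is induced by neuronal activity, whereas *Nptxr* can be cleaved and released from the membrane. H4K12ac, acetylation of lysine 12 of histone H4, is found around the TSSs of active genes, and histone H4 is a substrate of TIP60, the acetyltransferase encoded by *Tip60* (*Kat5*).

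*Nptx1* (ENSMUSG00000025582.4) lies on the minus strand at chr11:119538719-119547753 (mm10). The TSS of the non-coding gene *Gm11762*, which runs in the opposite direction, is 877 bp upstream, and a peak between both TSSs cannot be attributed to either. *Nptx2* (ENSMUSG00000059991.7) lies on the plus strand at chr5:144545902-144557478. *Nptxr* (ENSMUSG00000022421.19) lies on the minus strand at chr15:79786351-79804766, and all but its 3′ end overlaps the read-through gene *Npcd* (chr15:79789675-79834237), which starts next to *Cbx6*. The lengths of the genes are 9035, 11577 and 18416 bp.
Outside the 2 kb around annotated TSSs, the regions of the 3 loci in all 10 lists were compared by the spread of their summits. The smallest spread was 22.9 kb downstream of the *Nptx1* TSS, in intergenic DNA (chr11:119524528-119525117). The summits of this region in the 10 lists lay within 84 bp of each other. It was also the shortest of these regions, at 590 bp, and the length of a region limits the spread. The region within *Nptxr* whose summits lay closest together was in an intron at 8.78 kb (chr15:79792229-79799474), with summits spread over 4128 of its 7246 bp. Both regions were chosen after their values were seen, for having a peak in all 10 lists. The 200 bases around the median summit are given. The region near *Nptx1* is the one set against its TSS peak, whereas the window in *Nptxr* is only one part of a broad acetylated region. They were read from the GRCm38 genome of RefSeq on the plus strand.
*Nptx1*, chr11:119524758-119524957: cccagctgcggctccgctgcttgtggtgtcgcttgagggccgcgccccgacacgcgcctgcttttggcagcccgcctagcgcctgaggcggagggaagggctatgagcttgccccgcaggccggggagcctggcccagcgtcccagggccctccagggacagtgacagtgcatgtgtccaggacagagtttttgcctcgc
*Nptxr*, chr15:79795886-79796085: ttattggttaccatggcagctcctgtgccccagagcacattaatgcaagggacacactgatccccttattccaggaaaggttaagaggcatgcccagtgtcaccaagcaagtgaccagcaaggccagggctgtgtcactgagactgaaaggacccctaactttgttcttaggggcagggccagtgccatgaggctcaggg
The *Nptx1* window held 69.5% G and C and 15 CpGs, and the *Nptxr* window 54.0% and 0 CpGs. Among 11157 windows of the same length from regions in all 10 lists away from TSSs, the median was 54.5% with 3 CpGs, and 97.2% of these windows held less G and C than the one near *Nptx1*. On either strand, neither sequence held the CRE TGACGTCA (in 0.197% of the 11157 windows), its core TGACG (9.48%), the AP-1 motif TGANTCA (5.48%), the E-box CACGTG (3.78%), the GC box GGGCGG (9.29%), the TATA box TATAAA (4.43%), the E2F motifs TTTCCCGC (0.215%) and TTTGGCGC (0.170%), the MEF2 motif (0.986%) or the CArG motif (0.735%). The absence of these letters from the windows says nothing about binding.

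The *Tip60* cKO libraries held 22864189 to 37077725 tags and the control libraries 27418740 to 37923809 tags. Their lists held 64245 to 135494 and 93575 to 136409 peaks, and the shortest list, that of *Tip60* cKO mouse 5, had the fewest tags behind it. *Kat5* itself had a TSS peak in all 10 lists. Of the neuronal markers (*Rbfox3*, *Snap25*, *Map2*, *Syt1*), 4 of 4 had a TSS peak in all 10 lists, as had 2 of 3 markers of excitatory neurons. A peak in at least 1 list was found for 3 of 5 markers of inhibitory neurons, with none for *Gad1* and *Sst*, and for 3 of 4 of astrocytes, with none for *Aldh1l1*. It was found for 1 of 4 of microglia, with none for *Aif1*, *Cx3cr1* and *Tmem119*, and for 1 of 3 of endothelium, with none for *Pecam1* and *Tek*. Of the markers of oligodendrocytes given here, *Mog* and *Mag* had no TSS peak, whereas that of *Cnp* was found in every list and overlapped between the genotypes, at 78.2 ± 2.60 in *Tip60* cKO and 79.05 ± 3.49 in control mice (rank in percent among the TSS windows of all genes, SD, n = 5 each). The mean was lower in *Tip60* cKO mice for 4 of 4 neuronal markers (median difference -3.51) and 3 of 3 of excitatory neurons (-4.25), and among those with a peak for 1 of 3 of inhibitory neurons, 2 of 3 of astrocytes, 1 of 1 of microglia and 0 of 1 of endothelium. All of these markers overlapped between the genotypes, and their part in the differences at the pentraxin genes was not tested.

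At *Nptx1* the H4K12ac peak at the TSS was weaker, by its rank score and fold enrichment, in every *Tip60* cKO mouse than in any control, and less of the TSS window lay in peaks. Further downstream most regions overlapped between the genotypes, and 1 was higher in all *Tip60* cKO mice by rank score but not by fold enrichment. At *Nptx2* the values of a small peak cluster at the TSS overlapped between the genotypes. At *Nptxr* the mean at the TSS was lower in *Tip60* cKO mice, but the genotypes overlapped. The difference in rank score rested mostly on 1 mouse, whereas in fold enrichment all *Tip60* cKO mice but mouse 1 lay below every control. All 3 genes had a TSS peak in all 10 lists.
The TSS rank score places the strongest peak of a window, by its fold enrichment over the input background, among the windows of all genes of that library, in percent. For *Nptx1* it was 89.9, 91.9, 83.1, 85.7 and 91.3 in *Tip60* cKO mice 1 to 5 and 93.6, 92.9, 95.4, 97.0 and 98.0 in control mice 1 to 5. All 5 *Tip60* cKO values lay below all 5 control values. The means were 88.4 ± 3.80 and 95.4 ± 2.16 (SD, n = 5 each), a difference of -7.02. Over all 23984 genes with a TSS peak in at least 1 list, 1.46% had all *Tip60* cKO libraries below all controls, 1.75% had all above, and the median difference was -0.67. Since *Nptx1* was chosen with its lower level known, its place in that 1.46% is no finding.
The fold enrichment of the strongest *Nptx1* peak was 6.16, 5.95, 4.82, 5.37 and 5.70 in *Tip60* cKO mice and 7.62, 7.31, 8.39, 8.17 and 8.54 in controls. The means were 5.60 ± 0.53 and 8.01 ± 0.52 (SD, n = 5 each), a difference of -30.04%, again without overlap. Ranked by pileup, the height at the summit, in place of fold enrichment, the difference was -5.85 and the genotypes overlapped. The number of peaks in the window was 3.20 in both genotypes, but the widest peak measured 811 to 1867 bp (median 1165) in *Tip60* cKO mice and 1225 to 3643 bp (median 2777) in controls, so that its width overlapped between the groups. In 8 of 10 libraries the strongest summit lay between 238 and 782 bp after the TSS, within the gene. The exceptions were *Tip60* cKO mouse 4, with its summit at -372 bp, and control mouse 3, with its summit at -1656 bp, past the *Gm11762* TSS and within that gene.

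For *Nptx2* the TSS rank score was 84.9, 82.5, 86.1, 82.5 and 87.2 in *Tip60* cKO mice and 79.7, 86.2, 74.6, 84.0 and 78.6 in controls. The groups overlapped, and the highest value was that of *Tip60* cKO mouse 5. The means were 84.6 ± 2.13 and 80.6 ± 4.57 (SD, n = 5 each), and without control mouse 3 the difference of 4.04 became 2.54. The strongest peak had a fold enrichment of 5.05 ± 0.28 in *Tip60* cKO and 4.97 ± 0.66 in control mice. Its summit lay either upstream of the TSS, in 3 controls (-318, -321 and -311 bp) and in *Tip60* cKO mouse 1 (-307 bp), or between 129 and 537 bp after it, in the other 6 libraries.

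For *Nptxr*, the membrane-anchored member, the TSS rank score was 97.8, 86.0, 87.6, 92.6 and 74.8 in *Tip60* cKO mice and 93.9, 96.5, 91.2, 92.3 and 95.1 in controls. *Tip60* cKO mouse 1 had the highest value of all libraries and *Tip60* cKO mouse 5, with the fewest tags, the lowest. The means were 87.7 ± 8.60 and 93.8 ± 2.12 (SD, n = 5 each). The difference of -6.04 became -2.80 without *Tip60* cKO mouse 5 and -8.55 without *Tip60* cKO mouse 1. The fold enrichment of the strongest peak was 8.22, 5.07, 5.48, 6.49 and 3.60 in *Tip60* cKO mice and 6.85 to 8.35 (median 7.50) in controls. By this measure all *Tip60* cKO mice but mouse 1 lay below every control. Its summit lay 340 to 775 bp after the TSS in 9 libraries and at -449 bp in *Tip60* cKO mouse 5.
*Nptx2* had the lowest rank score of the family in 8 of 10 libraries. The order was *Nptx1*, *Nptxr*, *Nptx2* in 4 libraries and *Nptxr*, *Nptx1*, *Nptx2* in 4 others, and neither *Nptx1* nor *Nptxr* stood above the other beyond the spread between mice. In *Tip60* cKO mice the ranges of all 3 genes overlapped, and in controls that of *Nptx2* (74.6 to 86.2) lay below those of *Nptx1* (92.9 to 98.0) and *Nptxr* (91.2 to 96.5).

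**Figure D1:**
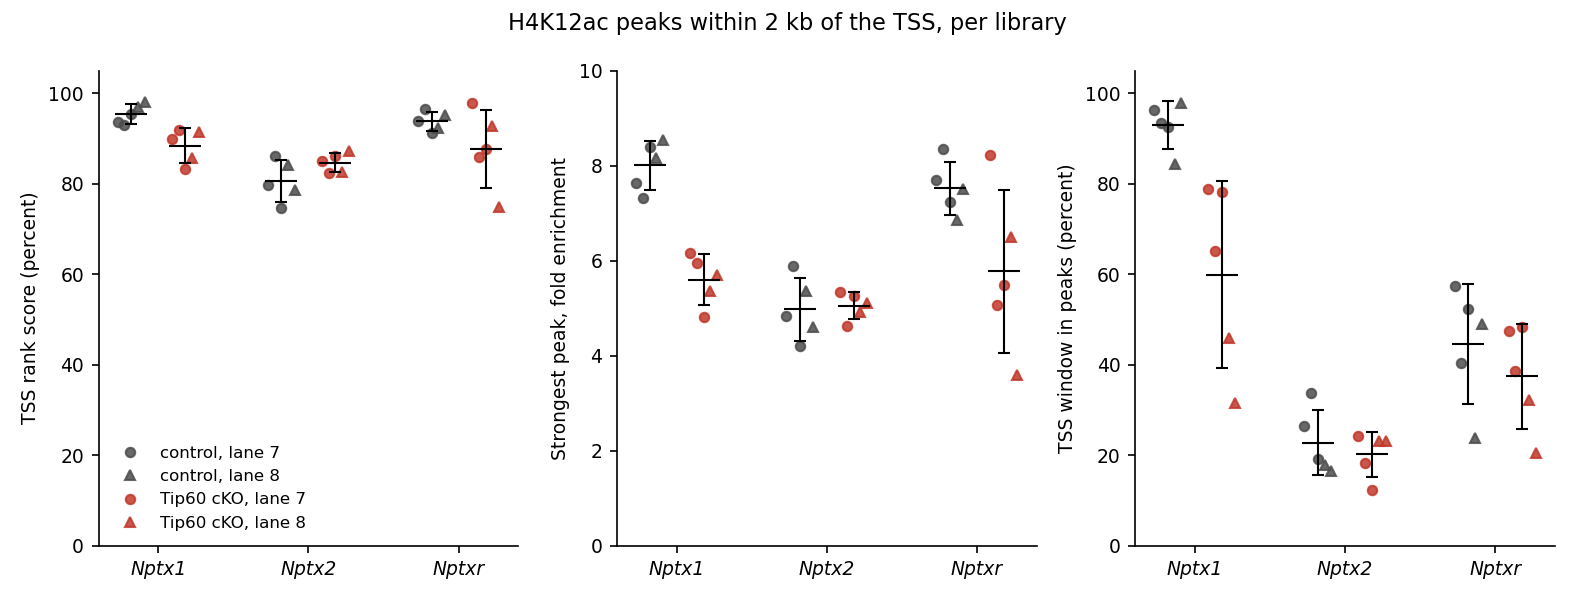
H4K12ac peaks within 2 kb of the TSS of each gene: the TSS rank score in percent, the fold enrichment of the strongest peak and the percent of the window lying in peaks, with 1 point per library (circles lane 7, triangles lane 8) and horizontal lines and bars for the mean ± SD of 5 mice. For *Nptx1* the *Tip60* cKO points lie below all control points in the 3 panels, whereas for *Nptx2* and *Nptxr* the genotypes overlap.

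The share of the TSS window that lay in peaks (TSS coverage) was 78.9, 65.0, 78.2, 45.8 and 31.6% at *Nptx1* in *Tip60* cKO mice and 96.4, 93.4, 92.5, 84.4 and 97.9% in controls. The groups did not overlap (59.9 ± 20.7% against 92.9 ± 5.25%, SD, n = 5 each). Coverage was lower in *Tip60* cKO libraries at most genes: its median difference was -3.32 over the 23984 genes, 77.9% of which were lower in the mean, and all *Tip60* cKO libraries lay below all controls for 4.72% of genes. When each library was scaled to its mean over all genes, the difference at *Nptx1* was -16.9 in place of -33.0 and the genotypes overlapped. *Nptx2* (20.2 ± 4.97% and 22.7 ± 7.20%) and *Nptxr* (37.4 ± 11.6% and 44.6 ± 13.2%) overlapped between *Tip60* cKO and control mice, and with the same scaling both differences turned positive (4.09 and 2.30).
As read from the names of the deposited peak lists, lane 7 held mice 1 to 3 and lane 8 mice 4 and 5 of each genotype. The rank score difference at *Nptx1* was -5.68 on lane 7 and -9.01 on lane 8, and its TSS coverage differed by -20.1 and -52.4, without overlap on either lane. At *Nptx2* the rank score differed by 4.37 and 3.55, and at *Nptxr* by -3.41 and -9.99, on lanes 7 and 8. The background that MACS used at the TSS peaks, relative to the lowest of the library, was 1.07 ± 0.051 at *Nptx1* in *Tip60* cKO and 1.03 ± 0.026 in control mice, and 1.08 ± 0.085 and 1.27 ± 0.15 at *Nptxr*. Its part in the differences was not tested.

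The body of each gene was taken from 2 kb after its TSS to its end. Peaks covered 46.3, 19.8, 23.4, 20.5 and 7.32% of the *Nptx1* body in *Tip60* cKO mice and 42.8, 36.3, 38.1, 26.6 and 43.4% in controls. *Tip60* cKO mouse 1 had the highest value of all and the other 4 lay below every control (23.5 ± 14.2% against 37.4 ± 6.76%, SD, n = 5 each). The strongest peak of the body was of similar fold enrichment, 4.45 ± 0.51 and 4.36 ± 0.80. In *Nptx2* the body held a peak in 3 of 5 lists of each genotype and coverage was between 0 and 7.96% in *Tip60* cKO lists and between 0 and 9.22% in control lists.
By mean coverage of the gene body, *Nptxr* had the most extended acetylation of the 3 genes, whereas in the TSS window *Nptx1* had the highest mean coverage. Peaks covered 66.6, 60.4, 57.8, 45.7 and 26.04% of its body in *Tip60* cKO mice and 70.2, 62.4, 59.8, 37.3 and 65.8% in controls. The genotypes overlapped (51.3 ± 16.0% and 59.1 ± 12.8%, SD, n = 5 each), and in both the lowest value belonged to the mouse whose library had the fewest tags. The difference of -7.81 became -1.49 without *Tip60* cKO mouse 5. With all libraries, scaled to the mean over all genes, the difference turned to 4.86. Of the 14467 genes with a peak in the body, 71.7% were lower in the mean, 3.51% had all *Tip60* cKO libraries below all controls, and none of the 3 pentraxin genes did.
In the flanks, peaks covered 18.3 ± 5.95% around *Nptx1* in *Tip60* cKO lists (9.37 to 23.7%, median 19.2%) and 23.3 ± 5.31% in control lists (15.2 to 28.5%, median 23.0%). Around *Nptxr* they covered 22.4 ± 6.66% (11.9 to 29.4%) and 27.5 ± 4.39% (19.9 to 30.2%, SD, n = 5 each), so the genotypes overlapped at both genes, and without *Tip60* cKO mouse 5 the differences of -5.04 and -5.10 became -2.82 and -2.48. Flank coverage was lower in the mean at 83.9% of the 39802 genes, and when scaled to the mean over all genes the differences were -0.11 and 0.78. Around *Nptx2* no *Tip60* cKO list held a peak and 4 control lists held 1 to 4. All *Tip60* cKO libraries lay below all controls in the flanks of 5.09% of 39802 genes, and of none of the 3 pentraxins.

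**Figure D2:**
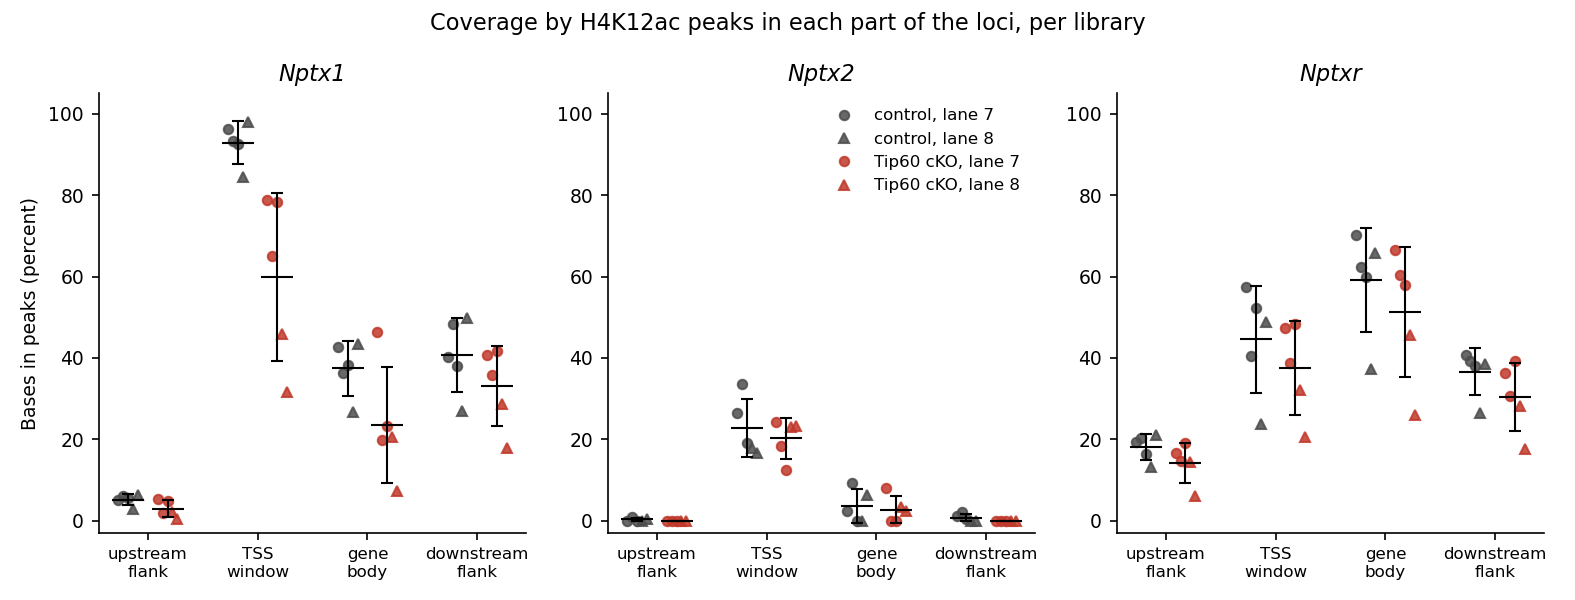
Percent of bases in H4K12ac peaks in the upstream flank, TSS window, gene body and downstream flank of each gene, with 1 point per library (circles lane 7, triangles lane 8) and the mean ± SD of 5 mice. The genotypes are separated in the TSS window of *Nptx1*, from 31.6 to 78.9% in *Tip60* cKO lists and from 84.4 to 97.9% in control lists, and *Nptx2* has almost no peaks outside its TSS window.

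Consensus regions are merged peaks found in at least 2 lists, and they were ranked within a library, in percent, by the strongest peak among all 144781 such regions, with 0 where no peak was called. All 5 *Tip60* cKO libraries lay below all controls in 1.34% of these regions and above them in 0.783%, and the median difference was -2.21. The *Nptx1* locus held 29 regions, 9 of them with a peak in all 10 lists. The region over the TSS (chr11:119543063-119550226) had rank scores of 94.3 ± 2.79 in *Tip60* cKO and 98.4 ± 0.76 in control lists (SD, n = 5 each), without overlap.
Upstream of *Nptx1*, 4 of 5 regions had a lower mean in *Tip60* cKO lists, with a median difference of -28.1, compared with 56.9% of all consensus regions with a lower mean. Each of the 5 had no peak in at least 1 *Tip60* cKO list, so that scores of 0 enter these means. The farthest, 45.5 kb upstream (chr11:119592619-119593941), had a peak in 4 *Tip60* cKO and 5 control lists, with rank scores of 45.2 ± 25.8 and 79.7 ± 15.6. Of the 4 regions in the body of the gene, 2 had a lower mean in *Tip60* cKO lists and none was in all 10 lists. Over an exon and UTR of *Nptx1*, a region 6.44 kb after the TSS (chr11:119540990-119541569) had a peak in 1 *Tip60* cKO and 5 control lists. The regions on either side of it, at 6.03 and 7.54 kb, had a peak in 2 and 4 *Tip60* cKO and in 0 and 5 control lists, with differences of 22.8 and 5.85 in rank score. The region at 5.26 kb had a peak in 1 and 3 lists.
Downstream of *Nptx1*, 8 of 19 regions were in all 10 lists and the median difference was 0.64, with 9 regions lower in the mean. The intergenic region at 22.9 kb, whose centre is printed above, had rank scores of 96.1 ± 5.26 in *Tip60* cKO and 95.5 ± 3.26 in control mice. The region 40.1 kb downstream (chr11:119506373-119511340), over an exon and UTR of *Endov*, was higher in all *Tip60* cKO libraries than in all controls, at 98.3 ± 1.09 against 93.0 ± 3.43 (SD, n = 5 each). *Endov*, which encodes an endonuclease that acts on inosine-containing RNA, and the non-coding *A930037H05Rik* share a TSS window 56.4 kb from that of *Nptx1*, where rank scores averaged 97.4 ± 3.13 in *Tip60* cKO and 95.4 ± 4.75 in control mice.

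**Figure D3:**
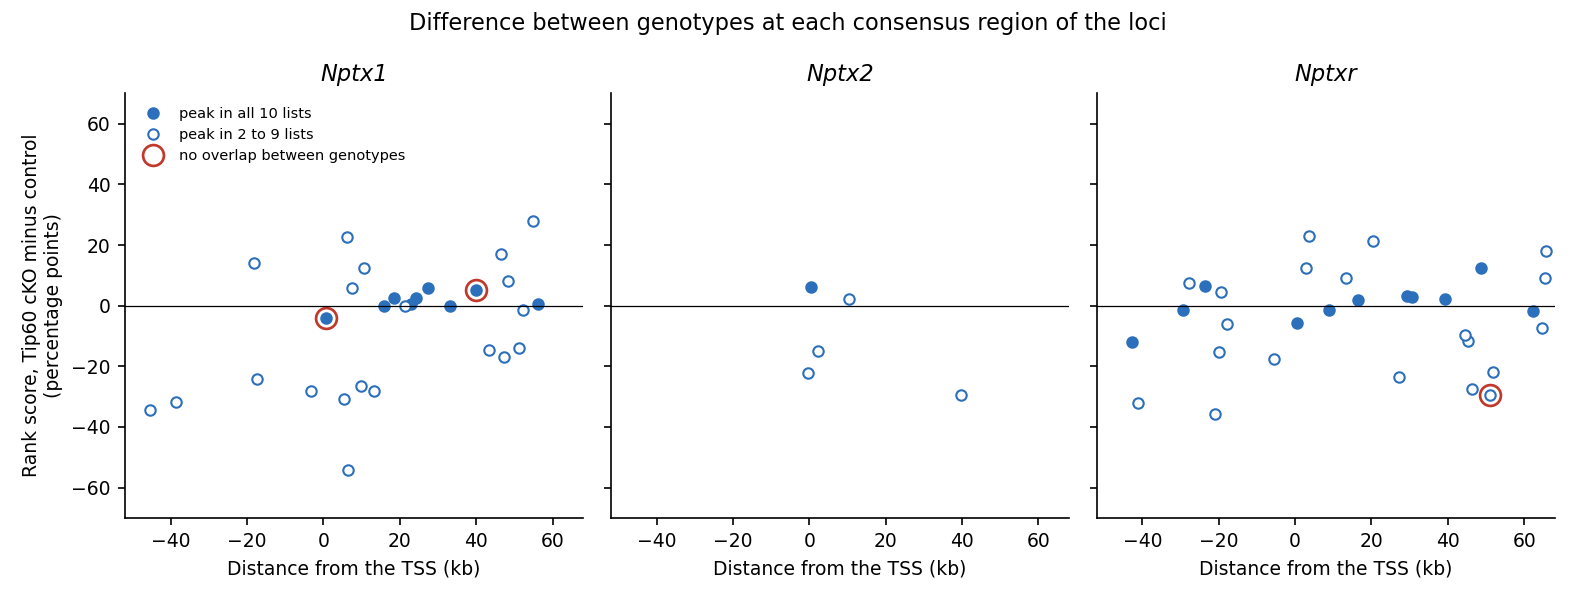
Difference in rank score between *Tip60* cKO and control mice, in percentage points, at each consensus region of the 3 loci against the distance of its summit from the TSS in kb. Filled points are regions with a peak in all 10 lists, and red circles mark the regions without overlap between genotypes, which are the TSS region and the region at 40.1 kb of *Nptx1* and the region at 51.0 kb of *Nptxr*.

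Fold enrichments at the TSS and downstream of *Nptx1* were also set against each other within each library, so that a factor common to all peaks of a library cancels. The peak at 22.9 kb had a fold enrichment of 7.40, 6.39, 7.17, 4.47 and 8.10 in *Tip60* cKO mice and 8.16, 5.26, 5.68, 6.62 and 7.60 in controls (6.71 ± 1.39 and 6.66 ± 1.23, SD, n = 5 each). The TSS peak divided by it gave 0.83, 0.93, 0.67, 1.20 and 0.70 in *Tip60* cKO mice and 0.93, 1.39, 1.48, 1.23 and 1.12 in controls. The TSS peak was the weaker of both in 4 of 5 *Tip60* cKO mice and in 1 of 5 controls, and the groups overlapped through *Tip60* cKO mouse 4. Divided by the strongest peak of the downstream flank, it gave 0.65 ± 0.084 in *Tip60* cKO and 0.92 ± 0.18 in control mice, with ranges of 0.56 to 0.76 and 0.72 to 1.15. That strongest peak was not the same one in every library: it lay at the *Endov* and *A930037H05Rik* TSSs in 3 *Tip60* cKO and 2 control libraries, and 18.4 to 39.6 kb from the *Nptx1* TSS in the other 5. These ratios were formed after the values of the single regions were seen.

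**Figure D4:**
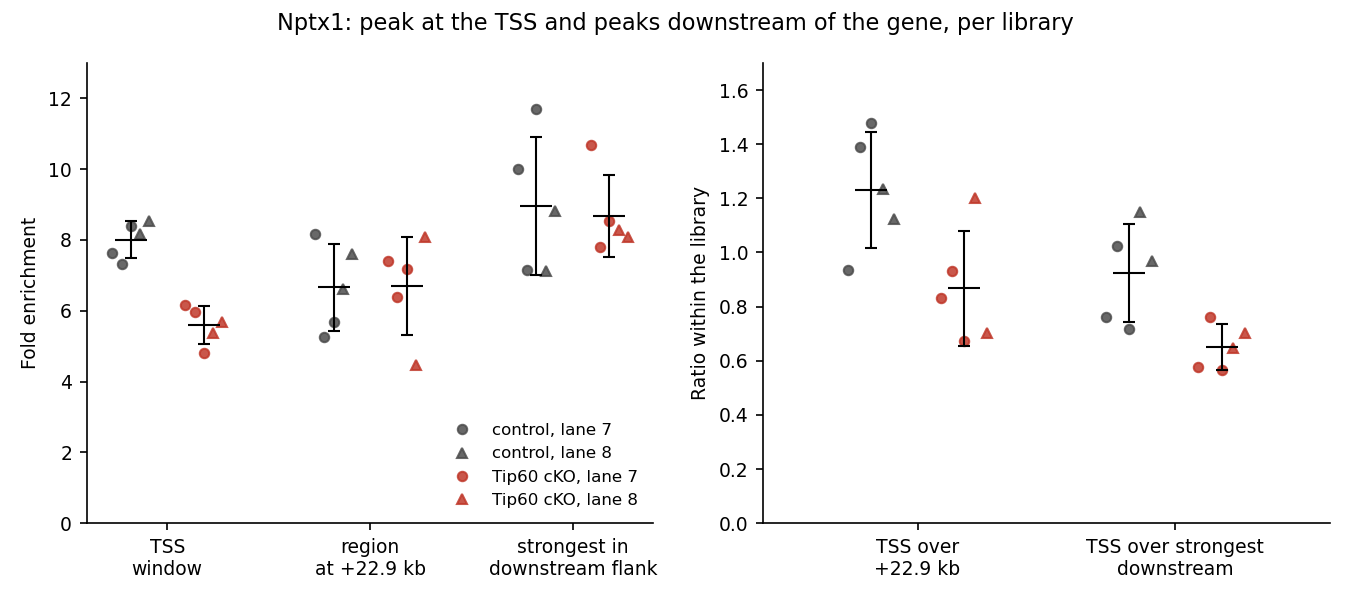
*Nptx1* locus: fold enrichment of the strongest peak in the TSS window, in the region at 22.9 kb and in the downstream flank (left) and the ratio of the TSS peak to the other 2 in the same library (right), with 1 point per library (circles lane 7, triangles lane 8) and the mean ± SD of 5 mice. The *Tip60* cKO points are separate from controls at the TSS only, and the ratios average 0.87 and 0.65 in *Tip60* cKO and 1.23 and 0.92 in control mice.

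*Nptx2* stood in a region almost free of H4K12ac peaks. Of 224 bins of 500 bp from one end of its flanks to the other, 92.0% had a peak in no list, compared with 42.5% at *Nptx1* and 36.7% at *Nptxr*. Of its 5 consensus regions the one over the first exon (chr5:144545838-144546975) was in all 10 lists, with rank scores of 86.7 ± 10.7 in *Tip60* cKO and 80.5 ± 16.5 in control lists (SD, n = 5 each). The region just upstream of the TSS (chr5:144545400-144545753) had a peak in 3 *Tip60* cKO and 4 control lists. A region 39.6 kb downstream of the TSS (chr5:144584788-144585790) was found in 2 control lists and in no *Tip60* cKO list. No other gene has its TSS in these flanks.

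**Figure D5:**
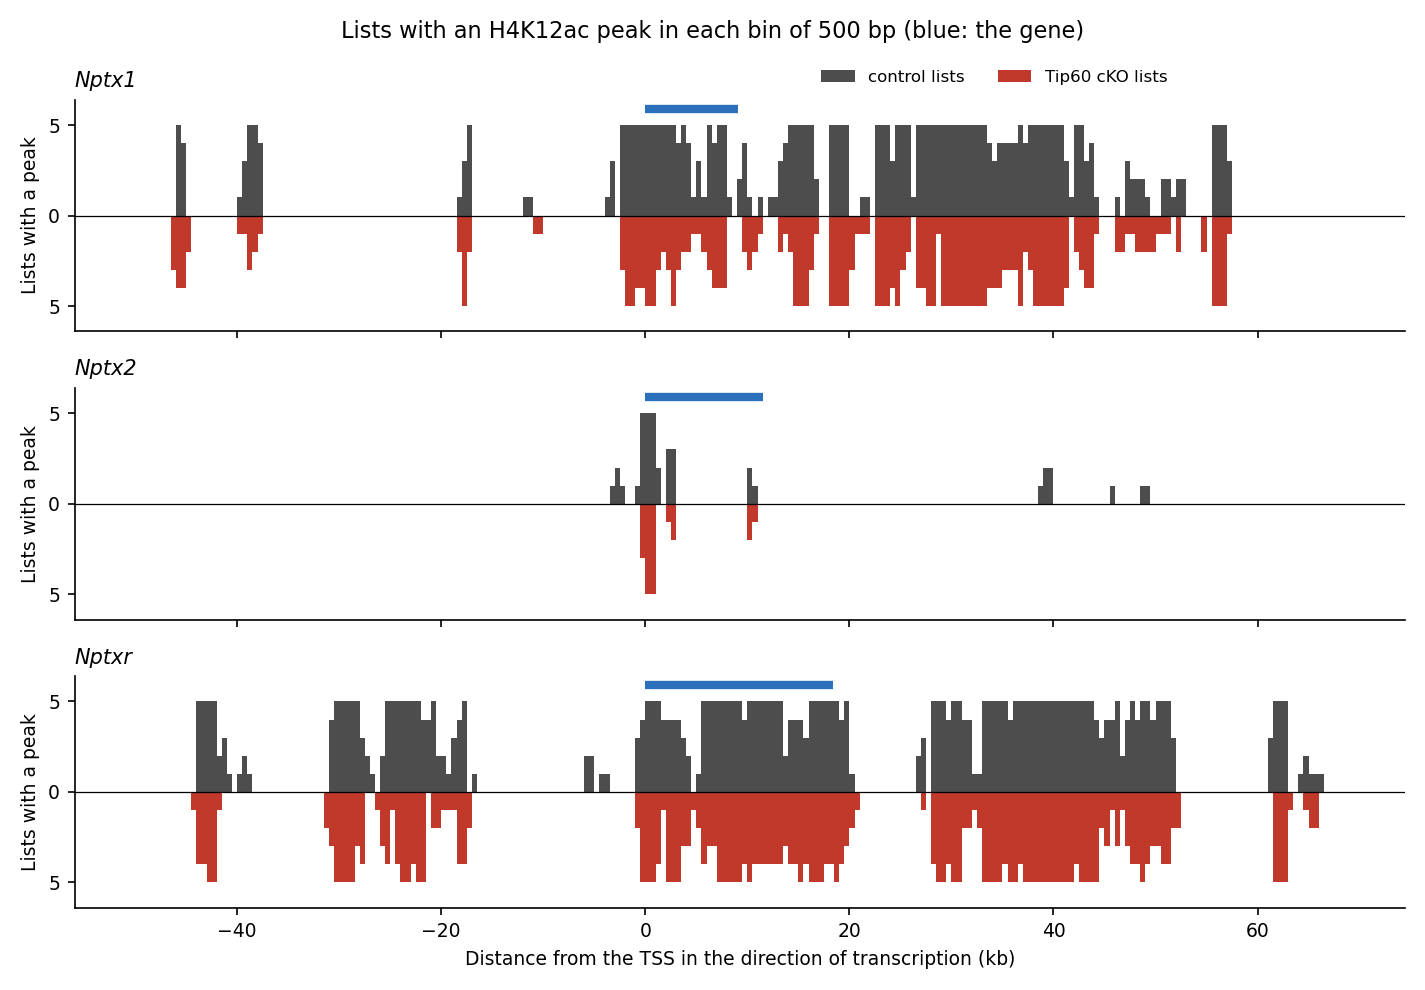
Number of control lists (upwards, grey) and *Tip60* cKO lists (downwards, red) with a peak in each bin of 500 bp, by distance from the TSS in kb in the direction of transcription, with the gene as a blue bar. Bins with a peak in all 10 lists number 37 at *Nptx1*, 2 at *Nptx2* and 47 at *Nptxr*, and peaks at *Nptx1* extend mainly downstream of the TSS.

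The *Nptxr* locus held 31 consensus regions, 11 in all 10 lists. The region over the TSS (chr15:79803035-79805583) had means of 91.9 ± 8.83 in *Tip60* cKO and 97.7 ± 0.82 in control lists (SD, n = 5 each). Within the gene, the intronic region at 8.78 kb printed above had rank scores of 93.1 ± 1.18 and 94.4 ± 1.57, and the region over its last exon and 3′ UTR (chr15:79784946-79790667) 90.7 ± 3.72 and 88.8 ± 6.65. Of the 31 regions, 17 had a lower mean in *Tip60* cKO lists, compared with 56.9% of all regions, and the median difference was -1.36, compared with -2.21.
The region 51.0 kb downstream of the *Nptxr* TSS (chr15:79753299-79754786) lay in an exon of the non-coding gene *Gm16576*. Its rank score was lower in all *Tip60* cKO libraries, at most 84.5, than in all controls, at least 84.9. In fold enrichment the genotypes overlapped there, at up to 4.343 in *Tip60* cKO and from 4.339 in control lists. The region had a peak in 4 *Tip60* cKO and 5 control lists, with rank scores of 61.5 ± 35.1 and 91.1 ± 3.96, a difference of -29.6. Without *Tip60* cKO mouse 4, whose list held no peak there, the difference was -14.2, still without overlap in rank score. The next region, 48.7 kb from the TSS (chr15:79755157-79757708), had rank scores of 86.2 ± 7.23 in *Tip60* cKO and 73.8 ± 13.1 in control mice, with overlap.
Most peaks around *Nptxr* lay at other genes. *Cbx6*, a Polycomb protein gene, and *Npcd* share a TSS window with rank scores of 91.8 ± 6.01 in *Tip60* cKO and 93.0 ± 5.53 in control mice. *Sun2*, which encodes a protein of the inner nuclear membrane, and *Gm16576* share another (86.3 ± 6.04 and 87.2 ± 5.47). *Dnal4*, a dynein light chain gene, had a TSS peak in 4 *Tip60* cKO and 5 control lists (62.7 ± 36.0 and 77.4 ± 4.12), and the non-coding *Gm16575* in 3 and 3 (43.3 ± 39.5 and 40.9 ± 37.4). The genotypes overlapped at each of these TSSs.

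Genes that act with the neuronal pentraxins were examined in the same way. Of the AMPA receptor subunits, to which pentraxins bind, 4 of 4 had a TSS peak in at least 1 list and 1 had a lower mean in *Tip60* cKO mice, compared with 54.9% of all genes, with a median difference of 12.8 in rank score, compared with -0.67. *Gria2*, the subunit that makes AMPA receptors impermeable to calcium, lay above all controls in all *Tip60* cKO libraries, at 93.7 ± 1.47 against 85.5 ± 2.69 (SD, n = 5 each), and 1.75% of all genes did so. *Gria3* lacked a peak in 1 control list, and *Gria4* had one in only 3 *Tip60* cKO and 1 control lists. Over the lists with a peak, the differences were -2.47 at *Gria1*, 8.21 at *Gria2*, 2.72 at *Gria3* and 1.35 at *Gria4*, with a median of 2.03.
Of 8 binding or processing partners, 5 had a TSS peak in all 10 lists, 4 of these were lower in the mean and the median difference was -1.19, with overlap for all. The 3 genes of complement C1q, *C1qa*, *C1qb* and *C1qc*, which microglia express, had none in any list. Of 6 activity-regulated genes, 6 had a peak in at least 1 list and 2 in all 10, 5 were lower in the mean, the median difference was -9.93 and all overlapped between genotypes, whereas 54.9% of all genes were lower in the mean. The other 4 lacked a peak in some lists, which enter as 0, and they were named for this after their values were seen. Over the lists with a peak, the means in *Tip60* cKO and control mice were 76.9 and 75.03 for *Fos*, 78.3 and 75.7 for *Npas4* and 72.6 and 81.1 for *Bdnf*. *Homer1* had a peak in 0 *Tip60* cKO and 2 control lists. Without it, and over the lists with a peak, 2 of 5 genes of this list were lower in the mean, with a median difference of 1.85. Of the other pentraxins, the acute-phase genes *Crp* and *Apcs* had no TSS peak in any list, and the long pentraxin genes *Ptx3* and *Ptx4* had one in 4 and 0 *Tip60* cKO lists and in 5 and 4 control lists.

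Genes whose TSS rank score varied most like that of each pentraxin gene over the 10 libraries were sought among 9656 protein-coding genes with a TSS peak in all lists. For *Nptx1* these were *Igdcc3* (Pearson r = 0.94), *Maml2* (0.93) and *Tcp11l1* (0.92), and 95% of candidates had r below 0.62. For *Nptx2* they were *Celf5* (0.90) and *Ndufs1* and *Eef1b2* (0.87 for both, which share a TSS window), with 95% below 0.57. For *Nptxr* they were *Gaa* (0.94), *Itpka* (0.94) and *Dusp8* (0.93), with 95% below 0.64. The 10 points share libraries, depth and genotype, and the genes were selected as the highest of many, so the values describe likeness alone.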

How the data were processed

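H4K12ac ChIP-Seq peak lists of 10 libraries were used, each called against the pooled input of its genotype. Reads had been mapped by the authors with STAR to mm10, freed of duplicates with samtools and passed, library by library, to MACS 2.1.0.20140616 (q < 0.1). The deposited pileup, a coverage signal, is the height at the summit. As deposited, fold enrichment gives the ratio of pileup to local input background. The authors give p-values and q-values as −log10. Depth limits which peaks pass the threshold, and no counts per region were used, so the precision is the spread between mice.

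TSSs were the 5′ ends of genes of GENCODE M21 (GRCm38). A peak counted in a TSS window by an overlap of 1 base, and in bodies and flanks by its summit. Members, lists and alternatives were chosen with earlier results of these data known. Genotypes were compared by mean ± SD and overlap, with no test, beside the share of all genes or regions that do not overlap. Named genes were the members, neighbours with a TSS peak in at least 5 lists, list genes without overlap or without any peak, and the 3 genes most alike. *Nptx1*, *Nptx2* and *Nptxr* are not in the promoter table used here. Scripts used Python 3.11.15, numpy 2.4.6, pandas 2.3.3, pysam 0.24.0 and samtools 1.23.1, and were tested on simulated peaks. Labels and study differ in strain, sex and library kit version. One marker gene is not reported here.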

Additional observations from a re-analysis of the deposited data

Results flagged for a closer look

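The flank coverage of *Nptxr* in control mouse 4 was 19.9%, whereas the other 4 control mice had 27.5 to 30.2%. The gap to the nearest mouse was 0.73 of the whole range of the group, above the critical value of 0.71 for 5 samples. It was the only such case among 24 groups of 5 values examined, and chance gives about 1 in 20. This library had the fewest tags of the controls, 27418740, and the shortest control list, 93575 peaks. The part of depth in the flank coverage of this mouse was not tested.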

How the results depend on the processing

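No paired analysis was possible because the genotype differences come from no test, and mice of the same number are different animals. Besides leaving out libraries, 12 of 81 values on the scale of the reported one were identical to it. Of the other 69, 63 moved by less than the SD between mice. The sign turned in 6 of the 69, some of which were among those 63. As log2 fold enrichment over the median of the library, the TSS difference was -0.55 at *Nptx1*, without overlap, and 0.00094 at *Nptx2*. Ranking by pileup gave -5.85 at *Nptx1*, with overlap. Scaling coverage to the mean of all genes, chosen after seeing the data, gave a TSS difference of -16.9 at *Nptx1*, and turned positive the TSS difference at *Nptx2* (4.09) and *Nptxr* (2.30), the body difference at *Nptx2* (0.28) and *Nptxr* (4.86) and the flank difference at *Nptxr* (0.78), with -0.11 left at *Nptx1*. On lane 8 alone the TSS coverage differed by -52.4 at *Nptx1*, and by 5.95 at *Nptx2*, with *Tip60* cKO mice above controls without overlap. Overlap was also absent in the body of *Nptx1* on lane 8 (-21.1) and in the flanks of *Nptx2* on lane 7 (-0.77) and without control mouse 4 (-0.63). With the 64245 strongest peaks of every library the flank difference at *Nptx2* was -0.058. The cause of these shifts was not tested.
Without each library in turn, the rank score difference was -7.89 to -5.70 at *Nptx1*, never with overlap, 2.54 to 5.43 at *Nptx2* and -8.55 to -2.80 at *Nptxr*. TSS coverage differed by -37.7 to -25.9, -4.03 to 0.24 (positive without control mouse 2) and -12.4 to -2.93, body coverage by -19.7 to -9.92, -2.21 to 0.51 (positive without control mouse 2) and -13.2 to -1.49, and flank coverage by -7.06 to -2.82, -0.63 to -0.25 and -7.00 to -2.48, in the same order of genes. The values nearest to 0 at *Nptxr*, and in the flanks of *Nptx1*, were those without *Tip60* cKO mouse 5, and the lowest coverage values at *Nptxr* in the TSS window and body were those without control mouse 4. At the region 51.0 kb from *Nptxr*, in an alternative added after seeing the data, the rank score difference was -35.4 to -14.2, never with overlap. Without *Tip60* cKO mouse 1 the genotypes no longer overlapped in the body of *Nptx1*.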
